A study of Homo sapiens with 6 samples.

Results

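The genes described here are 10 components of the transforming growth factor β (TGF-β) and activin pathway: the ligands TGFB1 and TGFB2, the receptors TGFBR1, TGFBR2 and ACVR1B, the signal transducers SMAD2, SMAD3 and SMAD4, and the inhibitors SMAD7 and SMURF2. They were chosen by name and not by a cut-off on their measured values, though earlier results of these data were known. They are 10 of the 19364 genes in the Brunello knockout library, and each was targeted by 4 guide RNAs (gRNAs), 40 of 77441 in all. Cas9+ IMR32, an established MYCN-amplified human neuroblastoma line, carried the library. These cells were cultured alone (CON), with CD14-depleted fresh human lymphocytes (Lymph), or with lymphocytes and 10 µg/ml of nivolumab, an antibody that blocks PD-1 (Nivo). Each condition had 2 libraries, numbered by the lymphocyte donor of the screen, and the CON libraries held no lymphocytes. The screens were run at different effector-to-target ratios, and which donor went with the higher ratio is not given in the sources used here. The harvest was on day 5 by the labels and the paper's supplement, while its main text gives a longer coculture. Floating cells were removed by washing, and gRNA cassettes were amplified from the DNA of cells that stayed attached. A value is thus the frequency of each knockout among them. It is not a measure of gene expression, and whether IMR32 expresses each gene could not be checked here.

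TGF-β is secreted in a latent form and, once released, binds the type II receptor TGFBR2, which activates the type I receptor TGFBR1. The activated complex phosphorylates SMAD2 and SMAD3, which join SMAD4 and regulate transcription in the nucleus. ACVR1B serves the same SMADs as a type I receptor for activins. SMAD7 blocks the receptors and brings in ubiquitin ligases such as SMURF2. In many epithelial and neural cells the pathway slows growth, and in tumors TGF-β is best known for restraining T cells and natural killer cells. The library acts only in the cancer cells, since the lymphocytes carried no gRNAs, and a secreted ligand lost from a knockout cell can still reach it from other cells in the flask.

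The question for these genes was whether their loss changed how many cancer cells remained with lymphocytes or with nivolumab. In no comparison did any of the 10 reach an adjusted p under 0.05. SMAD3 with lymphocytes and SMAD4 with nivolumab had the smallest p-values, and SMAD4 gRNAs were the least abundant of the 10 genes in cells cultured alone. The libraries held 58554842 to 79924251 reads each, with 713 to 987 for the median gRNA, and the 40 gRNAs had between 112 and 2056 reads in any library. Counting error alone gave a standard error of 0.05 to 0.17 for the log2 ratio of 1 gRNA between 2 libraries. Log2 values correlated at 0.961 to 0.966 within a donor and at 0.939 to 0.943 between donors. Values below are normalized reads, on a scale on which every library has the same total. Each gene was given a score per donor, the median over its 4 gRNAs of the log2 ratio between 2 libraries, with 1 added to each value.

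**Figure D1:**
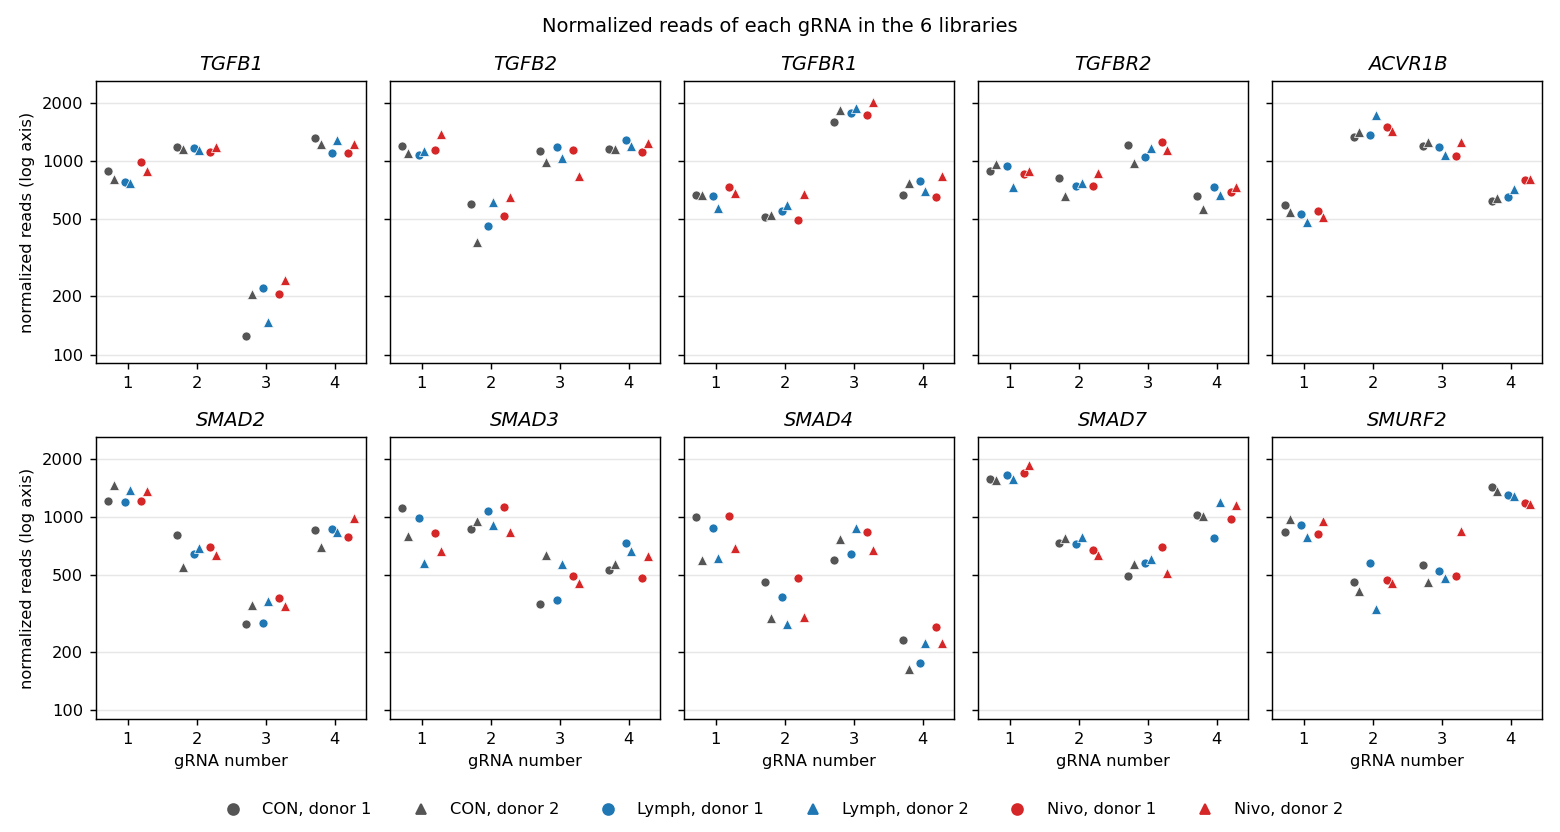
Normalized reads (log axis) of the 4 gRNAs of each gene, with colours for the condition and circles and triangles for donor 1 and donor 2. The gRNAs of 1 gene lie further apart than the conditions of 1 gRNA, as in TGFB1, whose gRNA 3 stays between 124 and 242 while gRNA 2 stays between 1110 and 1189.

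TGFB1 (chr19:41301587-41353922, minus strand, GRCh38) encodes the most widely expressed TGF-β ligand. Its 4 gRNAs averaged 881 and 851 normalized reads in the CON libraries of donors 1 and 2, 818 and 837 in Lymph, and 853 and 885 in Nivo. The conditions overlapped except that both Lymph values lay below the others. The share of all genes with such a separation was not counted. Its scores were -0.11 and -0.04 for Lymph/CON, 0.02 and 0.09 for Nivo/CON, and -0.04 and 0.13 for Nivo/Lymph, in donors 1 and 2. TGFB1_3, the rarest of the 40 gRNAs, had 124 and 206 normalized reads in CON, 221 and 148 in Lymph, and 206 and 242 in Nivo. Its Lymph/CON ratio was 0.83 in donor 1, where the counting error was 0.16, and -0.48 in donor 2.

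TGFB2 (chr1:218345336-218444619, plus strand) encodes the isoform with known roles in development and in the nervous system. Its gRNAs averaged 1019 and 911 normalized reads in CON, 1005 and 994 in Lymph, and 981 and 1029 in Nivo, with the conditions overlapping. TGFB2 scored -0.04 and 0.05 for Lymph/CON, -0.06 and 0.21 for Nivo/CON, and 0.02 and 0.07 for Nivo/Lymph. All 4 gRNAs of TGFB2 lay on opposite sides of 0 in the donors for Nivo/CON, and TGFB2_2 ranged furthest, at -0.21 and 0.77.

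TGFBR2 (chr3:30606601-30694142, plus strand) encodes the ligand-binding type II receptor, without which cells do not respond to TGF-β. Its gRNAs averaged 895 and 793 normalized reads in CON, 868 and 836 in Lymph, and 889.99 and 910 in Nivo. In donor 2 the CON library was the lowest and the Nivo library the highest, and in donor 1 the values lay close together. TGFBR2 scored -0.02 and 0.23 for Lymph/CON, 0.01 and 0.30 for Nivo/CON, and -0.05 and 0.16 for Nivo/Lymph. The Nivo/CON score averaged 0.15 ± 0.21 (SD, n = 2 donors), and the value of donor 2 stood at percentile 99.2 of all genes against 52.7 in donor 1.

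TGFBR1 (chr9:99104038-99154192, plus strand) encodes the type I receptor kinase of TGF-β. Its gRNAs averaged 863 and 949.7 normalized reads in CON, 947 and 940.2 in Lymph, and 905 and 1056 in Nivo, with the conditions overlapping. TGFBR1 scored 0.13 and -0.05 for Lymph/CON, 0.04 and 0.13 for Nivo/CON, and -0.09 and 0.22 for Nivo/Lymph. TGFBR1_3 was the most abundant of the 40 gRNAs, at 1605 to 2022 normalized reads.

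ACVR1B (chr12:51951699-51997078, plus strand) encodes the activin type I receptor ALK4. Its gRNAs averaged 938 and 967 normalized reads in CON, 937 and 1001 in Lymph, and 979 and 1004 in Nivo. The scores were near 0 in both donors for Lymph/CON (0.01 and -0.01) and Nivo/CON (0.03 and 0.01), and were 0.09 and 0.13 for Nivo/Lymph. ACVR1B_4 had 626 and 648 normalized reads in CON, 653 and 719 in Lymph, and 799.6 and 813 in Nivo. Its Nivo/CON ratio was 0.35 and 0.33, within the range of olfactory receptor gRNAs in each donor, and the other gRNAs of the gene were not all on that side.

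SMAD2 (chr18:47808957-47931146, minus strand) encodes a receptor-activated SMAD shared by TGF-β and activin. Its gRNAs averaged 787 and 768 normalized reads in CON, 745 and 821 in Lymph, and 769 and 833 in Nivo. The gene score changed sign between donors in each comparison, being -0.003 and 0.16 for Lymph/CON, -0.06 and 0.09 for Nivo/CON, and 0.07 and -0.05 for Nivo/Lymph. None of its gRNAs lay on the same side in both donors for Nivo/CON or for Nivo/Lymph.

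SMAD3 (chr15:67063763-67195173, plus strand) encodes the other receptor-activated SMAD of the pathway, which binds DNA directly. In CON libraries of donors 1 and 2 its gRNAs averaged 718 and 739.97 normalized reads. They averaged 791 and 683 in Lymph, and 734 and 647 in Nivo. SMAD3_4 had 534 and 574 in CON, 732 and 668 in Lymph, and 482 and 632 in Nivo. SMAD3_1 had 1114 and 797 in CON, 987 and 578 in Lymph, and 828 and 668 in Nivo, so that within each donor Lymph lay below CON. SMAD3_2 had 869 and 955 in CON, 1071 and 911 in Lymph, and 1127 and 835 in Nivo. SMAD3_3 had 356 and 634 in CON, 374 and 574 in Lymph, and 497 and 454 in Nivo, so that donor 2 was higher in CON and Lymph and lower in Nivo. SMAD3 scored 0.19 and -0.11 for Lymph/CON, 0.11 and -0.22 for Nivo/CON, and -0.09 and -0.10 for Nivo/Lymph.

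SMAD4 (chr18:51028528-51085045, plus strand) encodes the common partner of the activated SMADs and is a known tumor suppressor. Its gRNAs averaged 572 and 458 normalized reads in CON, 521 and 497 in Lymph, and 651 and 473 in Nivo. The donor 1 library was higher than the donor 2 library in every condition. SMAD4_1 had 995 and 597 in CON, 877 and 612 in Lymph, and 1018 and 689.7 in Nivo. SMAD4_2 had 462 and 300.1 in CON, 388 and 279 in Lymph, and 483 and 304 in Nivo. For both gRNAs donor 1 stood above donor 2 throughout and the conditions within a donor lay closer together than the donors. SMAD4_3 had 598 and 769.6 in CON, 642 and 874 in Lymph, and 833 and 676 in Nivo. SMAD4_4 had 232 and 163 in CON, 176 and 224 in Lymph, and 269 and 223 in Nivo. The gene score was -0.22 and 0.11 for Lymph/CON, 0.14 and 0.11 for Nivo/CON, and 0.35 and 0.06 for Nivo/Lymph. Donor 1 of Nivo/Lymph had all 4 gRNAs above 0 and stood at percentile 99.8 of all genes, against 70.6 in donor 2. The low Lymph/CON score and the high Nivo/Lymph score of donor 1 share the same Lymph library.

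SMAD7 (chr18:48919853-48950965, minus strand) encodes an inhibitory SMAD that competes for the receptors. Its gRNAs averaged 958 and 981 normalized reads in CON, 931 and 1043 in Lymph, and 1013 and 1041 in Nivo. SMAD7 scored 0.02 and 0.05 for Lymph/CON, 0.015 and 0.016 for Nivo/CON, and 0.16 and -0.15 for Nivo/Lymph. SMAD7_1 was the most abundant gRNA of the gene, at 1556 to 1855 normalized reads.

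SMURF2 (chr17:64542282-64662307, minus strand) encodes a ubiquitin ligase that marks activated receptors and SMADs for degradation. Its gRNAs averaged 826 and 802 normalized reads in CON, 830.4 and 722 in Lymph, and 743 and 854 in Nivo. The gene score was 0.01 and -0.19 for Lymph/CON, -0.12 and 0.05 for Nivo/CON, and -0.15 and 0.36 for Nivo/Lymph. In Nivo/Lymph no gRNA lay above 0 in donor 1 and 3 of 4 did in donor 2, and the mean was 0.11 ± 0.36 (SD, n = 2 donors). SMURF2_3 had 565 and 460.3 normalized reads in CON, 528 and 482 in Lymph, and 496 and 844 in Nivo. The high value of donor 2 gave a Nivo/Lymph ratio of 0.81, with a counting error of 0.09, and donor 1 gave -0.09.

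**Figure D2:**
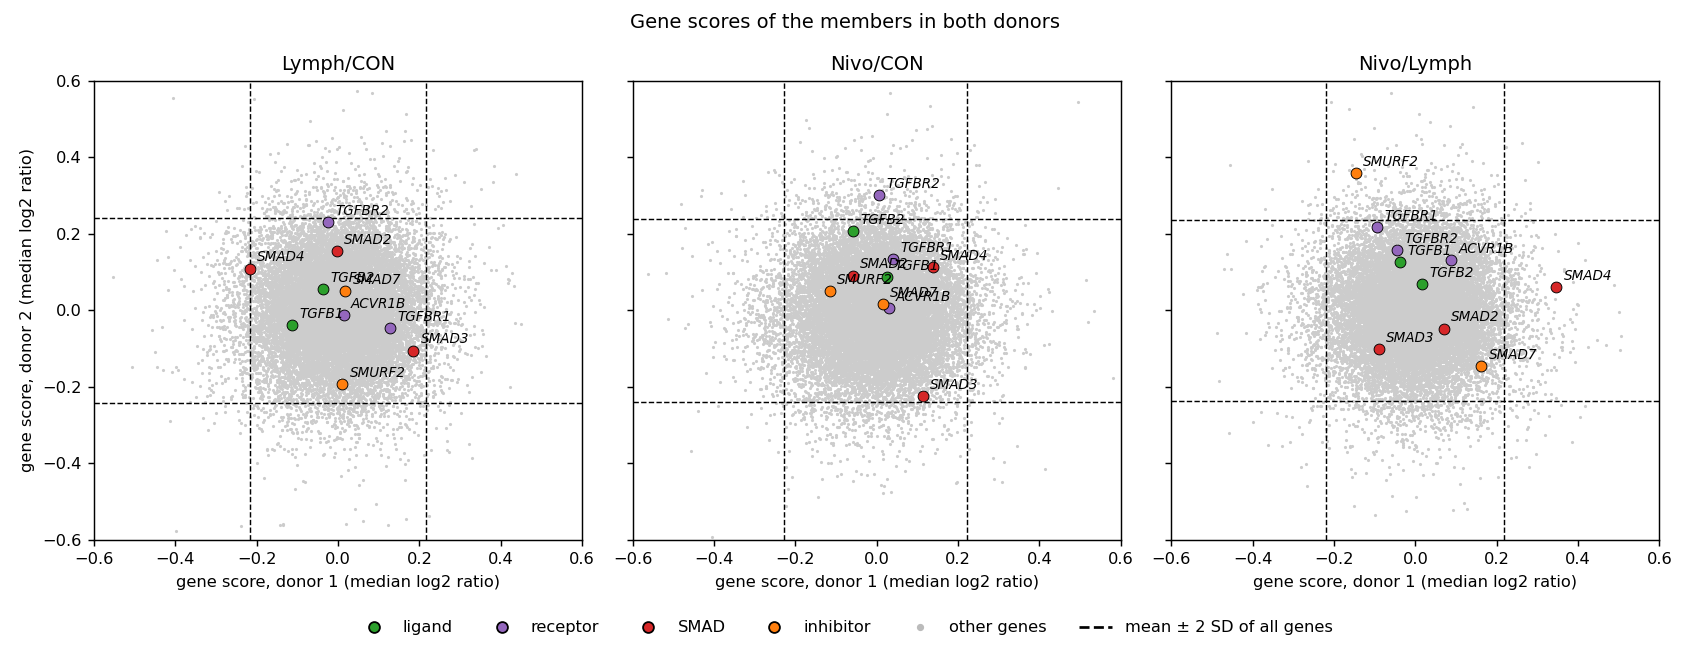
Gene scores (median log2 ratio over 4 gRNAs) in donor 1 against donor 2 for the 3 comparisons, with the 10 genes coloured by role, the other genes in grey, and dashed lines at the mean ± 2 SD of all genes. TGFBR2 in Nivo/CON and SMURF2 in Nivo/Lymph lie beyond the line of donor 2, SMAD4 in Nivo/Lymph lies beyond that of donor 1, and 8 of the other genes fall outside the axes, which end at 0.6.

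Past the mean ± 2 SD of all gene scores, 0 of the 10 genes were found for Lymph/CON in donor 1, where 4.73% of all genes were, and 0 in donor 2, where 4.8% were. For Nivo/CON there were 0 in donor 1 (background 4.85%) and 1, TGFBR2, in donor 2 (background 4.7%). For Nivo/Lymph there were 1, SMAD4, in donor 1 (background 4.89%) and 1, SMURF2, in donor 2 (background 4.96%). No gene of the 10 passed in both donors, and all 3 lay on the enriched side. The paper applied only the lower limit, and states that too few cancer cells were killed in the coculture to judge enriched genes accurately. With the mean over gRNAs in place of the median, TGFBR2 did not pass. SMAD4 in Lymph/CON of donor 1 scored -0.217 against a lower limit of -0.218, the nearest of those inside. With 1 library per condition in a donor, these counts have no test. The 3 comparisons share libraries, since Lymph/CON and Nivo/CON use the same CON values and Nivo/Lymph the same Lymph and Nivo values, so that they are not independent of each other.

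The donors often disagreed in sign. For Lymph/CON 1 gene, SMAD7, was above 0 in both donors, 1, TGFB1, was below 0 in both and 8 differed in sign. For Nivo/CON 6 were above 0 in both and 4 differed. For Nivo/Lymph 3 were above, 1, SMAD3, was below and 6 differed. Over all genes 49.9%, 50.2% and 49.8% had the same sign in both donors. Among single gRNAs, 13 of 40 were above 0 in both donors and 9 below for Lymph/CON, 13 and 8 for Nivo/CON, and 10 and 5 for Nivo/Lymph. Over all gRNAs 50.1%, 49.9% and 50.1% lay on the same side in both donors. A gene with every gRNA on 1 side in both donors was not found among the 10 for Lymph/CON (background 0.826%), Nivo/CON (background 0.806%) or Nivo/Lymph (background 0.888%).

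Olfactory receptor genes, which neural tumor cells are not known to need, gave 1496 gRNAs of 374 genes as a reference for the scatter of single gRNAs. Their log2 ratios without the lowest and the highest 2.5% were taken as their range in each comparison and donor, and its limits lay at -0.41 and 0.42 at the widest. Outside that range on the same side in both donors lay 0 of the 40 gRNAs for Lymph/CON (background 0.712%), 0 for Nivo/CON (background 0.652%) and 0 for Nivo/Lymph (background 0.567%). Counted within donors 1 and 2, 5 and 4 of the 40 gRNAs lay outside on either side for Lymph/CON (background 8.32% and 7.79%). For Nivo/CON there were 6 and 5 (background 6.5% and 8.69%), and for Nivo/Lymph 4 and 3 (background 6.23% and 8.07%). The median ratio of the 40 gRNAs was 0.002 and 0.04 for Lymph/CON, -0.01 and 0.11 for Nivo/CON, and 0.01 and 0.09 for Nivo/Lymph. The olfactory receptor medians were -0.0008 and 0.0004 for Lymph/CON, 0.007 and 0.02 for Nivo/CON, and 0.007 and 0.01 for Nivo/Lymph. The 3 comparisons of a donor share libraries, and the distance between these medians was not tested.

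Conditions were then compared over both donors with limma, with the donor as a block, on a gene value per library (the median over gRNAs of the log2 normalized reads after each gRNA was centred on its mean). For Lymph/CON 1 of 19364 genes had an adjusted p under 0.05, and none of the 10 did. Nivo/CON and Nivo/Lymph had 0 genes at that threshold in limma, with 1036 and 884 at an unadjusted p under 0.05. Of the 10 genes, 1 had an unadjusted p under 0.05 for Lymph/CON (background 5.22%), 0 for Nivo/CON (background 5.35%) and 1 for Nivo/Lymph (background 4.57%). The median difference of the 10 genes was 0.03, 0.07 and 0.04, beside medians within 0.002 of 0 over all genes, and 6, 9 and 8 of the 10 were above 0. This count describes genes that share the same 6 libraries and was not tested.

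For SMAD3 the gene value was -0.15 and -0.01 in CON of donors 1 and 2, 0.23 and 0.05 in Lymph, and 0.06 and -0.12 in Nivo. Both Lymph values lay above both CON values, and the Nivo values lay between the lowest CON and the highest Lymph value. The Lymph/CON difference was 0.22 (SE 0.08, 95% interval 0.04 to 0.39) with an unadjusted p of 0.0185 and an adjusted p of 0.892 in limma. It rested on the CON library of donor 1, without which the difference was -0.02. It also depended on how gRNAs were combined, and the mean over gRNAs gave 0.02. The gene score, which takes the ratio of each gRNA first, averaged 0.04 ± 0.21 (SD, n = 2 donors).

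For SMAD4 the gene value was 0.24 and -0.32 in CON, -0.04 and -0.13 in Lymph, and 0.36 and -0.14 in Nivo. Donor 1 exceeded donor 2 in each condition, and the conditions overlapped. The Nivo/Lymph difference was 0.20 (SE 0.09, 95% interval 0.004 to 0.39), with an unadjusted p of 0.0458 and an adjusted p of 0.996 in limma. Without the Lymph library of donor 1 it was -0.004, and the mean over gRNAs gave 0.18 with an unadjusted p of 0.0721. In Nivo/CON SMAD4 again had the smallest p of the 10 genes in limma, with a difference of 0.15 (SE 0.09, 95% interval -0.04 to 0.34) and an adjusted p of 0.938.

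**Figure D3:**
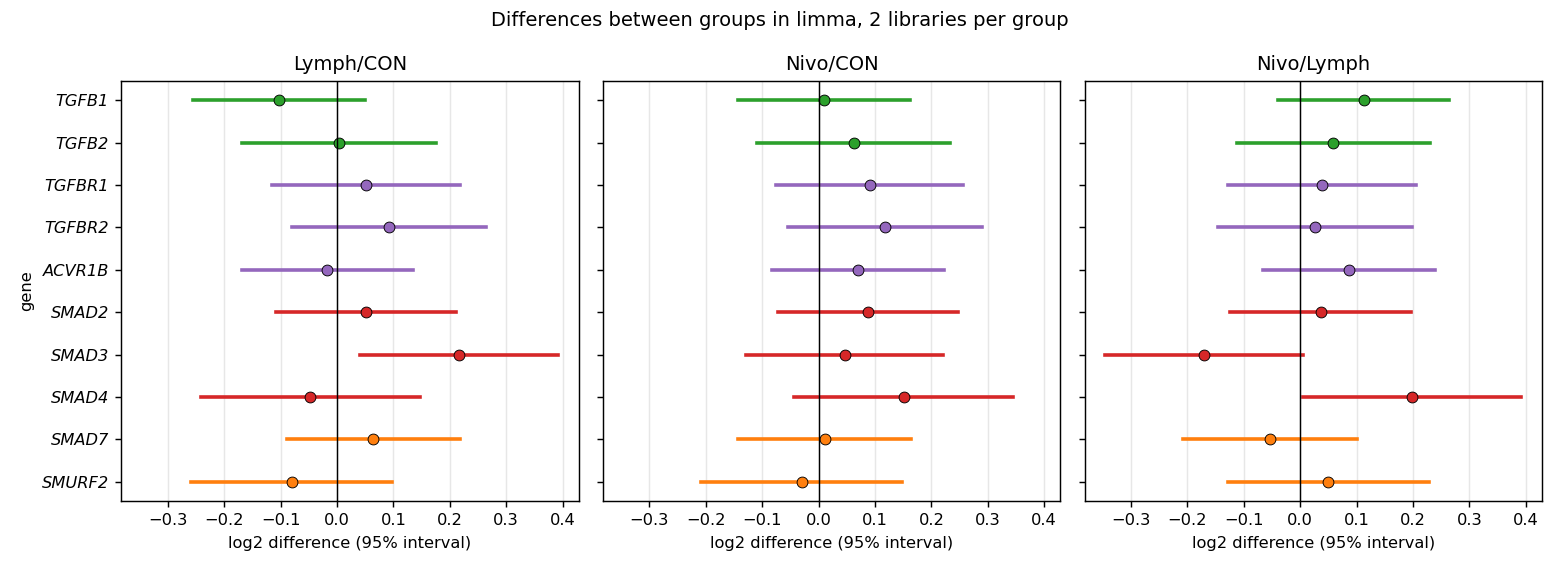
Log2 differences between conditions of the 10 genes in limma, as points with bars for the 95% interval, coloured by role, with 2 libraries per condition. The interval lies above 0 for SMAD3 in Lymph/CON and SMAD4 in Nivo/Lymph and includes 0 for the others.

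Over the 10 genes and 3 comparisons the 95% intervals reached from -0.35 to 0.39. Each interval is for 1 gene and takes its spread partly from all genes, so they do not bound the possible differences. With no replicate block the SE of SMAD4 in Nivo/Lymph was 0.20 in limma, in place of 0.09. In the fit per gRNA, 0 of the 40 gRNAs had an adjusted p under 0.05 in limma. At an unadjusted p under 0.05 there were 0 for Lymph/CON (background 4.62% of gRNAs), 2 for Nivo/CON (background 4.86%) and 1 for Nivo/Lymph (background 4.43%). They were ACVR1B_4 (0.34) and SMAD3_1 (-0.34) for Nivo/CON, and TGFB1_1 (0.28) for Nivo/Lymph. TGFB1_1 and SMAD3_1 are named here after their values were seen. For Lymph/CON, SMAD3_1 and SMAD3_4 lay on opposite sides of 0 in both donors.

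In cells cultured alone, abundance was set against the median of the olfactory receptor gRNAs, 989 and 986 normalized reads in the CON libraries. The abundance of a gRNA there also holds its share of the starting library, which was not analysed here, so this is a description of levels with no test. SMAD4 was the lowest of the 10 genes, with a median over its gRNAs of -0.91 and -1.22 on the log2 scale in donors 1 and 2. All its gRNAs but SMAD4_1 in donor 1 (0.01) lay below 0, as did the median of all gRNAs (-0.21 and -0.23). The gene stood at percentiles 3.21 and 1.34 of olfactory receptor genes, and at 9.07 and 5.28 of all genes. The middle range of olfactory receptor genes began at -1.02 and -1.10, so that SMAD4 lay below it in donor 2 and within it in donor 1. The gRNAs of 86 genes chosen by their ribosomal protein names, most but not all of which growing cells need, had a median of -1.39 and -1.41.

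Then came SMURF2 (-0.52 and -0.56), TGFBR1 (-0.57 and -0.46), SMAD3 (-0.54 and -0.47) and SMAD2 (-0.25 and -0.66), which did not differ beyond the spread between the CON libraries. TGFBR2 (-0.22 and -0.30), SMAD7 (-0.19 and -0.15) and ACVR1B (-0.19 and -0.12) followed. The ligands were highest, TGFB1 at 0.06 and -0.03 and TGFB2 at 0.20 and 0.09. The order by role was not tested.

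Below the olfactory receptor range in both CON libraries lay 2 of the 40 gRNAs, against a background of 4.31% of all gRNAs, and above it lay 0, against 0.81%. The 2 were SMAD4_4 (-2.09 and -2.59) and TGFB1_3 (-2.98 and -2.25). The other gRNAs of TGFB1 lay between -0.29 and 0.41, so that TGFB1_3 stood apart from its gene, whereas SMAD4_2 was also low at -1.10 and -1.71. SMAD2_3 lay at -1.81 in donor 1, just below the limit of -1.72, and at -1.48 in donor 2, inside. The median of the 40 gRNAs was -0.25 and -0.36, near the -0.21 and -0.23 of all gRNAs.

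**Figure D4:**
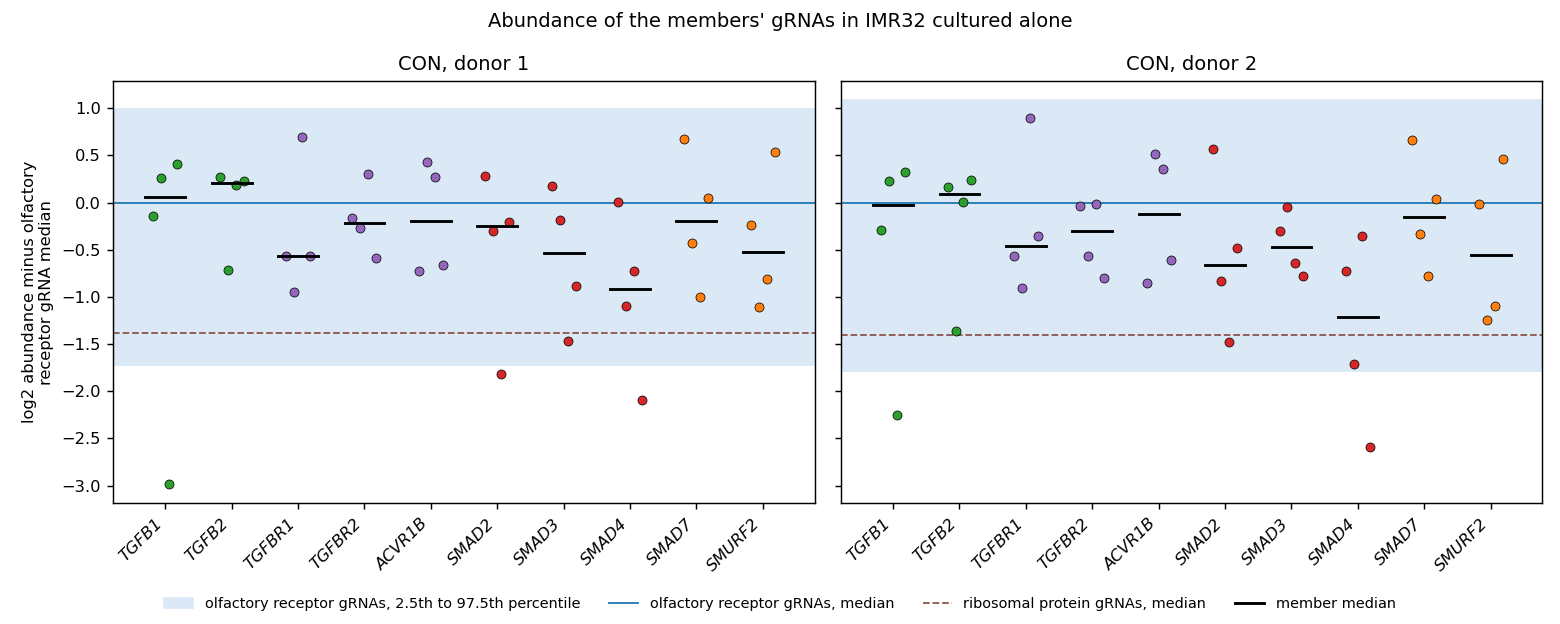
Abundance of the 4 gRNAs of each gene in the CON libraries (log2 normalized reads minus the olfactory receptor median), with a black bar at the median of each gene, the olfactory receptor range shaded and the ribosomal protein median dashed. SMAD4 has the lowest bar in both libraries, at -0.91 and -1.22, and TGFB1_3 lies far below the other gRNAs of its gene.

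Other genes of TGF-β and activin signalling were taken from a list of 51, of which 50 had gRNAs here and THBS1 was not analysed here. None passed an adjusted p of 0.05 in limma in any comparison. At an unadjusted p under 0.05, 0 of 50 were higher and 1 lower for Lymph/CON, 0 and 1 for Nivo/CON, and 3 and 1 for Nivo/Lymph, against 5.22%, 5.35% and 4.57% of all genes in either direction. Of the 50 differences 24, 25 and 26 were above 0. The 14 genes for ligands and their latency had 0 such genes in any comparison, as did the 8 nuclear partners and corepressors. The 12 receptors and coreceptors had 1 higher and 1 lower for Nivo/Lymph.

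The lowest mean score for Lymph/CON was that of NEDD4L (-0.18), a ubiquitin ligase of activated SMAD2 and SMAD3, and the highest that of ENG (0.14), an endothelial coreceptor. For Nivo/CON these were EP300 (-0.19), a histone acetyltransferase that SMADs recruit, and TRIM33 (0.14), a nuclear SMAD partner. For Nivo/Lymph they were ACVR2A (-0.23), an activin type II receptor, and SMAD6 (0.18), an inhibitory SMAD. ACVR2A scored -0.15 and -0.30 in the donors, and SMAD6 0.18 and 0.19. Their adjusted p in limma was 0.996, for ACVR2A and SMAD6 alike. TRIM33, singled out after its values were seen, was also the least abundant of the 50 in CON, at -1.55 and -1.18.

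The genes whose gene values over the 6 libraries were most like those of SMAD3, which had the smallest p of the 10, were TAAR2 (Pearson r = 0.995), KRT7 (r = 0.985) and RFPL4B (r = 0.982). With 6 libraries 27 of 19364 genes had an r above 0.95, and the values share the same libraries and depth.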

How the data were processed

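gRNA frequencies were measured in 6 libraries of IMR32 cells (CON, Lymph and Nivo, 2 each). The authors deposited a normalized read signal for every gRNA, and their processing notes name MAGeCK. The version is not given in the sources used here. Every library has the same total. Each value is a whole multiple of 1 step per library, from which depth was read. Reads without collapsed molecular identifiers are not independent molecules, so counting errors cover counting only.

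Log2 ratios used a pseudocount of 1, no filter on low values, and the median over gRNAs. A fold on this scale understates the change of rare gRNAs. Groups were compared with limma 3.58.1 (R 4.3.3), over all 6 libraries with 2 residual degrees of freedom and Benjamini-Hochberg adjustment over all genes or gRNAs. The spread shared over all genes added 17.2 degrees of freedom, and that over all gRNAs 5.9, so p-values and intervals rest largely on it. The donor was the block, as the study compares within donors. Same-numbered libraries deviated together (r = 0.394 to 0.402). Libraries of 1 donor may share more than lymphocytes, and p-values measure only the spread between these libraries. The fit was tested on simulated data in which changed genes moved by 1 on the log2 scale, alike for all gRNAs of a gene. That setting does not show how well smaller differences, or genes whose gRNAs disagree, would be found. Python 3.11.15, numpy 2.4.6, pandas 2.3.3 and matplotlib 3.10.9 were used. Positions are from GENCODE v44 on GRCh38.

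The members and lists were chosen with earlier results of these data known. All 10 genes are named. limma values are given for genes with an unadjusted p under 0.05, or the smallest p of a comparison. Single gRNAs are named where outside the olfactory receptor range in both donors or extreme in their gene (all 4 for SMAD3 and SMAD4), and pathway genes where lowest or highest in mean score. The alternatives were another pseudocount, scaling, filter, gRNA mean, threshold, reference, no block, and each library left out.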

Additional observations from a re-analysis of the deposited data

How the results depend on the processing

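None of the 10 genes reached an adjusted p under 0.05 in limma under any alternative run. SMAD3 in Lymph/CON reversed to -0.0156 without CON replicate 1 and was 0.377 without CON replicate 2, and its adjusted p ranged from 0.495 to 1.0 over 11 alternatives. SMAD4 in Nivo/Lymph reversed to -0.00375 without Lymph replicate 1 and was 0.398 without Lymph replicate 2, with adjusted p from 0.858 to 1.0, and in Nivo/CON it kept its sign, at 0.04 to 0.25. The cause was not tested. With no replicate block, the paired structure being dropped, 234, 249 and 189 genes had an unadjusted p under 0.05 for Lymph/CON, Nivo/CON and Nivo/Lymph, in place of 1011, 1036 and 884. None of the 10 genes did, and 0 genes had an adjusted p under 0.05 for Lymph/CON. The mean over gRNAs left 0 of the 10 at an unadjusted p under 0.05 for Lymph/CON and Nivo/Lymph, gave 2 genes with an adjusted p under 0.05 for Nivo/CON, and left 0 of the 10 past 2 SD for Nivo/CON in donor 2. A pseudocount of 50 gave 2 of the 10 at an unadjusted p under 0.05 for Nivo/Lymph. It gave 0 gRNAs with an adjusted p under 0.05 for Lymph/CON and Nivo/CON, as did leaving out gRNAs under 50 normalized reads. Limits from the median and MAD put 1 of the 10 genes past them for Lymph/CON in each donor, beside 1039 and 1131 of all genes in donors 1 and 2. With the 1st to 99th percentile, 0 of the 40 gRNAs lay below the olfactory receptor range in CON. With each of the 40 gRNAs averaged over the CON libraries, their median was -0.371 with the olfactory receptor median as zero. It was -0.155 with the median of all gRNAs as zero.

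Refits that left out 1 library assume that the lone sample varies like the other groups. They gave 0 to 20, 0 to 21 and 0 to 8 genes with an adjusted p under 0.05 for Lymph/CON, Nivo/CON and Nivo/Lymph, and 4 to 54, 7 to 21 and 0 to 50 gRNAs. Of the 10 genes, 1 to 2, 0 to 2 and 1 to 2 had an unadjusted p under 0.05. Of the counts and medians recomputed, 221 stayed within 1.5 times the reported count or the spread between replicates, and 55 did not. The count tools planned as alternatives were not run. With 2 libraries per condition, differences up to 0.39 on the log2 scale lie within the intervals of the fit with the donor as block. They do not bound what is possible.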
